A study of Mus musculus with 8 samples.

Results

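The transcripts of 8 interferon regulatory factor (IRF) genes, Irf1, Irf2, Irf3, Irf4, Irf5, Irf7, Irf8 and Irf9, were examined in bone marrow-derived macrophages (BMDMs). They were taken by symbol from the 55359 genes of the series, and all 8 passed the filter on low values.

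IRFs are transcription factors that share a DNA-binding domain and read related GAAA-rich elements in the promoters of interferons and interferon-stimulated genes. IRF3 and IRF7 are activated by phosphorylation downstream of pattern recognition receptors and switch on type I interferon genes, IRF9 is the DNA-binding subunit of ISGF3, the complex that carries the type I interferon signal, and IRF1 and IRF8 act downstream of IFNγ. In macrophages (Mϕ), IRF5 is tied to inflammatory cytokine genes and IRF4 to alternative activation, while IRF2 binds many of the same elements as IRF1 and can hold them silent.

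Total RNA was sequenced from 4 groups of 2 samples each. All BMDMs were grown from femoral marrow of adult C57BL/6 wildtype mice of both sexes, were differentiated in M-CSF together with GM-CSF, and were harvested as CD45+ cells on magnetic beads, CD45 being a surface protein of blood-lineage cells that fibroblasts lack. Ctrl were untreated BMDMs, and LPS were BMDMs that received LPS (100 ng/mL), a bacterial cell wall lipid sensed by TLR4, and IFNγ (100 U/mL) during 6 h. Eff were BMDMs that had been co-cultured for 16 h with apoptotic NIH-3T3 caspase activatable (CA) cells, at 5 apoptotic cells per Mϕ and in 10 nM dimerizer, the compound that triggers their death. These cells are clone D10 of a mouse fibroblast line, engineered to carry a caspase-8 domain that the dimerizer activates. LPSEff received the same co-culture, a wash and then the same LPS/IFNγ stimulus. Whether Ctrl and LPS also received the dimerizer is not given in the sources used here, so that uptake of apoptotic cells, soluble products of the fibroblasts and the compound itself cannot be told apart. Nothing in the labels says that the 2 samples of a group came from separate mice or cultures, so that the p-values measure the spread between these samples, which may be technical.

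Values are normalized counts, that is, reads divided by 1 size factor per sample. The samples held 3481288 to 12020918 reads on genes, and the 8 IRF transcripts had at least 54 reads in every sample, above the 1.73 to 5.71 normalized counts to which a floor of 3 reads corresponds. Coordinates are those of GRCm39. All 10 Mϕ markers examined, such as Csf1r and Adgre1, were above that floor in every sample. Differences are given on the scale of log2(normalized count + 1) with the standard error (SE) or 95% confidence interval of limma, and a gene was called where its Benjamini-Hochberg adjusted p over all 16309 genes tested was under 0.05. In bulk RNA, fewer cells of a type and less RNA per cell cannot be told apart. The summed normalized counts were 6587737 to 6951788 in unstimulated and 8470249 to 9489294 in LPS/IFNγ-treated samples. Rescaling to equal totals therefore moved the median log2 difference of all genes from -0.01 to -0.40 in LPS vs Ctrl and from 0.01 to -0.44 in LPSEff vs Eff. It also took the share of higher genes among those called from 51.5% to 24.8% and from 54.6% to 21.8%.

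In naïve Mϕ, LPS/IFNγ raised 6 of the 8 IRF transcripts, Irf7 and Irf1 by the most, and 5 of them, Irf1, Irf5, Irf7, Irf8 and Irf9, also rose in efferocytic Mϕ. The background was 24.0% of all genes called in LPS vs Ctrl and 19.7% in LPSEff vs Eff, with 12.4% and 10.7% called higher and 11.6% and 8.95% called lower. The median log2 difference of the 8 transcripts was 1.22 in naïve and 1.44 in efferocytic Mϕ, beside -0.01 and 0.01 for all genes tested. Of the 8 transcripts, 7 were higher without overlap between the groups in both comparisons (28.4% and 29.5% of all genes), and Irf3 was lower without overlap in both (30.9% and 30.4% of all genes).

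**Figure D1:**
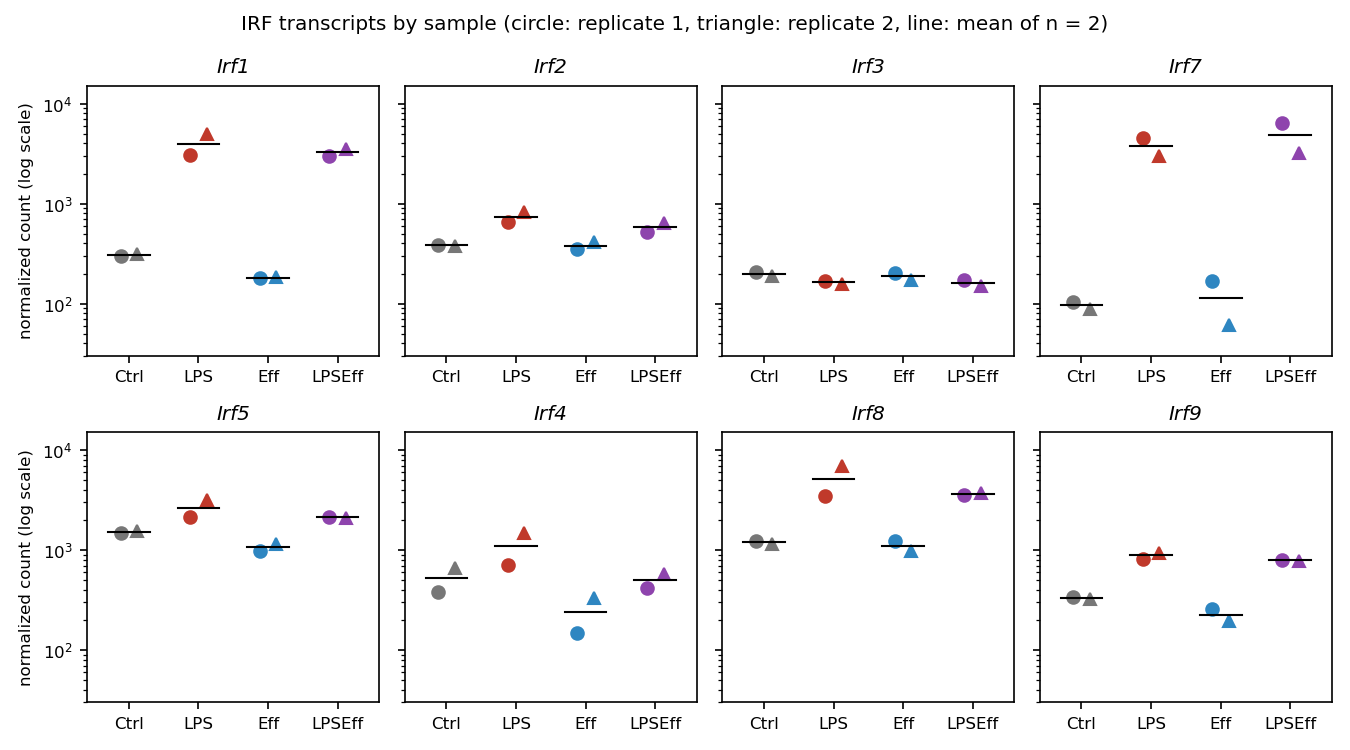
Normalized counts (log axis) of the 8 IRF transcripts in each of the 8 samples, with circles for replicate 1, triangles for replicate 2 and a line at the mean of each group (n = 2). Irf7 stood at 61.4 to 166 without and at 2970 to 6463 with LPS/IFNγ, while Irf3 stayed between 150 and 209 throughout.

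Irf7 (chromosome 7, 140842619 to 140846398, minus strand), the IRF that amplifies type I interferon production, had the widest range. Its normalized counts were 103 and 89.1 in the Ctrl samples and 4544 and 2970 in the LPS samples. They were 166 and 61.4 in Eff and 6463 and 3212 in LPSEff. Every stimulated sample was above every unstimulated sample, and the 2 Eff samples lay on either side of the Ctrl samples. The log2 difference was 5.25 (SE 0.486, adjusted p = 0.000266, limma), or 38.0-fold, in LPS vs Ctrl. In LPSEff vs Eff it was 5.48 (SE 0.486, adjusted p = 0.000203, limma), or 44.6-fold. Irf7 ranked 81st and 65th from the top of the 16309 genes by these differences. Replicate 1 was higher than replicate 2 in all 4 groups, by 0.21 to 1.42 on the log2 scale, and 85.6% of the genes tested had a smaller mean spread between replicates.

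Irf3 (chromosome 7, 44647033 to 44652272, plus strand), which is activated as a protein that is already present in resting cells, had the smallest differences with LPS/IFNγ. Its normalized counts were 209 and 189 in Ctrl and 169 and 156 in LPS, compared with 202 and 172 in Eff and 171 and 150 in LPSEff. All 4 stimulated samples were below all 4 unstimulated samples, by a narrow margin. On the log2 scale the difference was -0.29 (95% confidence interval -0.76 to 0.18, adjusted p = 0.362, limma) in LPS vs Ctrl and -0.22 (-0.69 to 0.25, adjusted p = 0.515) in LPSEff vs Eff. With equal totals these became -0.69 and -0.67 and were called (adjusted p = 0.0408 and 0.0462, limma), against a median of all genes of -0.40 and -0.44. Per kb of exon, Irf7 transcripts were 0.443 ± 0.0130 (SD, n = 2) times as abundant as Irf3 transcripts in Ctrl and 21.1 ± 5.09 times in LPS. In Eff the ratio was 0.543 ± 0.303, and in LPSEff it was 27.3 ± 10.6.

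Irf1, an activator that is itself made in response to IFNγ, had 303 and 317 normalized counts in Ctrl and 3043 and 4923 in LPS. It had 179 and 183 in Eff and 3001 and 3533 in LPSEff. The samples of the unstimulated groups agreed closely, and every stimulated sample was far above them. The log2 difference was 3.64 (SE 0.239, adjusted p = 6.0e-05, limma), or 12.5-fold, in naïve and 4.16 (SE 0.239, adjusted p = 2.99e-05), or 17.9-fold, in efferocytic Mϕ.

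Irf2, the competitor of IRF1, moved in the same direction by less. It had 388 and 376 normalized counts in Ctrl and 651 and 816 in LPS, against 352 and 409 in Eff and 515 and 642 in LPSEff. No stimulated sample overlapped the unstimulated samples. On the log2 scale the difference was 0.93 (SE 0.203, adjusted p = 0.0128, limma) in LPS vs Ctrl, and the call was lost without Ctrl replicate 1, Ctrl replicate 2 or LPS replicate 2 (adjusted p = 0.0628, 0.0702 and 0.0619). In LPSEff vs Eff it was 0.60 (SE 0.203, adjusted p = 0.0762), which did not pass with limma, while edgeR (adjusted p = 0.0349) and DESeq2 (adjusted p = 0.0494) on the recovered reads called it. The ratio of Irf1 to Irf2 transcripts per kb was 1.94 ± 0.108 in Ctrl and 12.8 ± 2.28 in LPS, and 1.14 ± 0.102 in Eff and 13.5 ± 0.540 in LPSEff (SD, n = 2). Both Eff samples (1.21 and 1.07) were thus below both Ctrl samples (1.86 and 2.01), while the LPSEff samples (13.9 and 13.1) lay within the span of the LPS samples (11.2 and 14.4). These ratios used the merged exons of each gene. With the length of its canonical transcript instead, the means were 0.954 in Ctrl, 6.30 in LPS, 0.561 in Eff and 6.66 in LPSEff, so that Irf1 was below Irf2 without LPS/IFNγ.

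**Figure D2:**
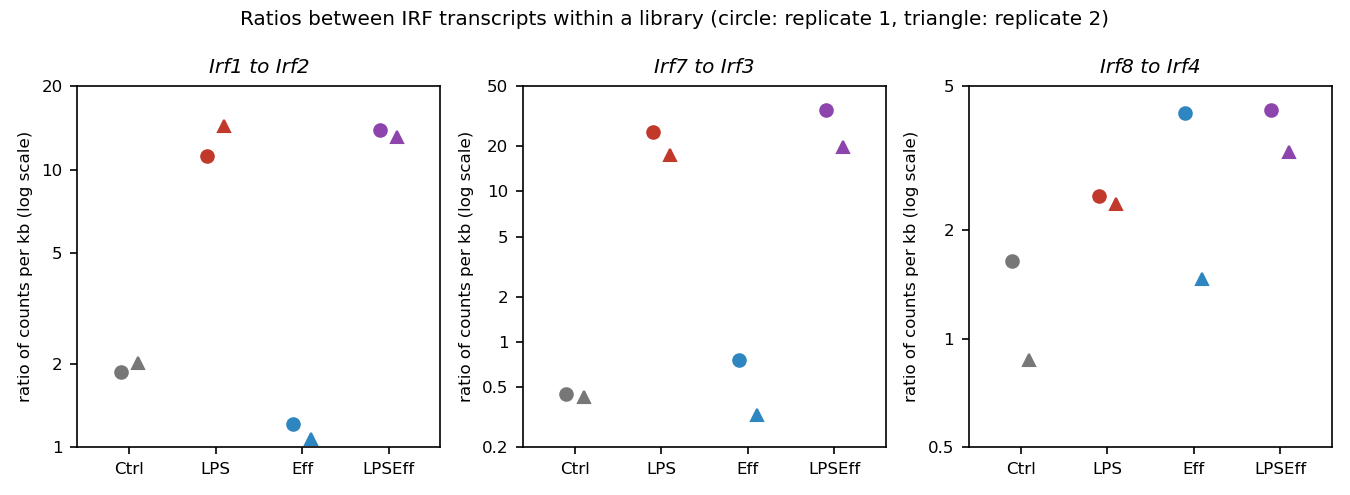
Ratio of normalized counts per kb of merged exons (log axis) between pairs of IRF transcripts in each sample, with circles for replicate 1 and triangles for replicate 2. The ratio of Irf1 to Irf2 was 1.07 to 2.01 in unstimulated and 11.2 to 14.4 in stimulated samples, and that of Irf7 to Irf3 was 0.328 to 0.757 and 17.5 to 34.8, while that of Irf8 to Irf4 overlapped between Ctrl and Eff.

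The signal of IFNγ acts at gamma-activated sites (GAS). The 250 bases before the start of each canonical transcript were therefore searched on both strands of GRCm39 for TTCNNNGAA, the letters of a GAS, and for GAAA, NN and GAAA in a row, the core of the interferon-stimulated response element (ISRE) that ISGF3 and IRFs bind. The GAS letters were present in 7.7% and the ISRE core in 3.32% of 21757 promoters. Of the 8 IRF windows, 3 held the GAS letters (Irf1, Irf2 and Irf8), 1 of which also held the ISRE core (Irf2), and the windows of Irf3, Irf4, Irf5, Irf7 and Irf9 held neither. The windows of Irf2, Irf5 and Irf9 lie wholly inside the annotated gene, whose first start is before that of the canonical transcript. Irf1 lies on chromosome 11 (53660812 to 53669200, plus strand), and the match TTCCCCGAA covers bases 90 to 82 before the canonical start. The window is shown up to the first annotated exon, chr11:53660591-53660811 on the plus strand, with the match in capitals:
Irf1: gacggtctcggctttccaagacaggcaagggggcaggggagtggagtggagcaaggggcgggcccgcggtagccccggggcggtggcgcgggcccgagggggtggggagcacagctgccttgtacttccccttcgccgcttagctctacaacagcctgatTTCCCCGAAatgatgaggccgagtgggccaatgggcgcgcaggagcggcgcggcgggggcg

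Irf2 lies on chromosome 8 (47192222 to 47300501, plus strand), and its canonical transcript starts at 47192760, so that both matches lie within the annotated gene. Its ISRE core covers bases 221 to 212 and its GAS letters bases 204 to 196 before the canonical start, without overlap. The 26 bases from the first to the last match, chr8:47192539-47192564 on the plus strand, are given with both matches in capitals to show how close they lie:
Irf2: GAAAATGAAAttgacttTTCCGAGAA

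The promoter of Irf8, on the same chromosome (121463096 to 121485659, plus strand), held the GAS letters at 2 places, at bases 171 to 163 and 153 to 145. They are in capitals in chr8:121462847-121463095, plus strand, which is the window up to the first annotated exon:
Irf8: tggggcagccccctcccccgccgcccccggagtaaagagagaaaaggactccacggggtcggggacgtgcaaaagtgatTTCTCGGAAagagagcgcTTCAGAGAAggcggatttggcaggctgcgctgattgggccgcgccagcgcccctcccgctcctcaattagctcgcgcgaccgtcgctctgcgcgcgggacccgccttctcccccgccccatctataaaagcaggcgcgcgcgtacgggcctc

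Of these 3 genes, Irf1 had the largest rise, Irf8 an intermediate and Irf2 the smallest. A match of letters is a description of the sequence, and Irf7, with neither match in its window, had the largest rise of all 8.

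Irf8, which works with PU.1 and AP-1 factors in the Mϕ and dendritic cell lineages, had 1226 and 1158 normalized counts in Ctrl and 3496 and 6894 in LPS. It had 1242 and 969 in Eff and 3598 and 3755 in LPSEff. The groups with and without LPS/IFNγ did not overlap, and the LPS samples stood further apart than those of any other group. The log2 difference was 2.04 (SE 0.303, adjusted p = 0.00231, limma), or 4.12-fold, in LPS vs Ctrl and 1.74 (SE 0.303, adjusted p = 0.0056), or 3.35-fold, in LPSEff vs Eff.

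Irf4 (chromosome 13, 30933209 to 30950959, plus strand), the closest relative of Irf8, was lower in efferocytic than in naïve Mϕ with and without LPS/IFNγ, but its replicates differed widely. Its normalized counts were 377 and 669 in Ctrl and 710 and 1478 in LPS, compared with 149 and 335 in Eff and 422 and 575 in LPSEff. In all 4 groups replicate 2 was the higher sample, by 0.45 to 1.16 on the log2 scale, and 87.7% of the genes tested had a smaller mean spread. Both Eff samples were below both Ctrl samples, and both LPSEff samples were below both LPS samples. On the log2 scale the difference was -1.16 (95% confidence interval -2.27 to -0.06, adjusted p = 0.765, limma) without LPS/IFNγ and -1.05 (-2.16 to 0.05, adjusted p = 0.513) with it. Neither was called in the limma fit, which has no term for the replicate number, and Irf4 ranked 240th and 405th from the bottom of the 16309 genes. With LPS/IFNγ, Irf4 was higher without overlap in naïve Mϕ (1.03, SE 0.480, adjusted p = 0.168) and in efferocytic Mϕ (1.14, SE 0.480, adjusted p = 0.142). These were not called by limma, whereas DESeq2 called the first (adjusted p = 0.0407).

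Irf4 and Irf8 are also read in dendritic cells, which can arise in cultures with GM-CSF. The summed normalized counts of 10 dendritic cell markers were 2565 to 3091 in Ctrl, 9492 to 17768 in LPS, 1611 to 2025 in Eff and 7554 to 7609 in LPSEff, and thus followed the same order of groups as Irf4 within each stimulus. Ccr7, which Mϕ also express, made up most of this sum, with 1839 and 2128 in Ctrl and 7649 and 14409 in LPS, against 1151 and 1296 in Eff and 6243 and 5720 in LPSEff. Of the 10 markers, 6 or 7 were above the floor in both samples of each group. Flt3, Zbtb46, Xcr1, Tcf4 and Clec10a were above it in every sample, as was Ccr7. Clec10a was not higher with LPS/IFNγ, at 320 and 109 in Ctrl and 107 and 34.5 in LPS. Its values were 92.0 and 50.8 in Eff and 85.5 and 21.6 in LPSEff. Clec9a was above the floor in both samples of LPS only (10.3 and 13.2). It had 1.90 and 1.73 in Ctrl, 0 and 1.41 in Eff and 2.38 and 3.81 in LPSEff. Ly6d was at 0 in both Eff samples and Cd209a at 0 in both LPSEff samples. The part of dendritic cells in the values of Irf4 and Irf8 was not tested. The ratio of Irf8 to Irf4 per kb was 1.64 and 0.874 in the Ctrl samples and 2.48 and 2.35 in LPS, compared with 4.2 and 1.46 in Eff and 4.30 and 3.29 in LPSEff. Each sample of LPSEff was above each sample of LPS, while Eff and Ctrl overlapped. With the length of the canonical transcript instead of merged exons, the mean ratio was 2.34 in Ctrl, 4.50 in LPS, 5.27 in Eff and 7.07 in LPSEff.

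Irf5 (chromosome 6, 29526276 to 29541870, plus strand), the member tied to IL-12, IL-6 and TNF, had 1474 and 1535 normalized counts in Ctrl and 2147 and 3176 in LPS, against 990 and 1145 in Eff and 2164 and 2097 in LPSEff. The stimulated samples were all above the unstimulated samples, and the Eff samples were the lowest of all. The log2 difference was 0.80 (SE 0.216, adjusted p = 0.0308, limma) in LPS vs Ctrl and 1.00 (SE 0.216, adjusted p = 0.0140) in LPSEff vs Eff. The first call was lost with equal totals (0.39, adjusted p = 0.125, against -0.40 for the median gene) and with quantile normalization (0.27, adjusted p = 0.304), and without Ctrl replicate 1, Ctrl replicate 2 or LPS replicate 2 (adjusted p = 0.133, 0.108 and 0.129). The second was lost without Eff replicate 1, LPSEff replicate 1 or LPSEff replicate 2 (adjusted p = 0.0986, 0.0777 and 0.0584).

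Irf9 (chromosome 14, 55841028 to 55847812, plus strand), the subunit of ISGF3 that binds DNA, had 339 and 323 normalized counts in Ctrl and 823 and 946 in LPS, compared with 256 and 196 in Eff and 799 and 786 in LPSEff. Its replicates were the closest of the 8 transcripts, only 11.4% of all genes having a smaller mean spread. On the log2 scale the difference was 1.41 (SE 0.194, adjusted p = 0.0016, limma), or 2.66-fold, in naïve and 1.82 (SE 0.194, adjusted p = 0.000532), or 3.52-fold, in efferocytic Mϕ.

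Without LPS/IFNγ, 7 of the 8 IRF transcripts had lower means in Eff than in Ctrl, and none was called. Beside this 0 by limma, 4 had an unadjusted p under 0.05 (Irf1, Irf4, Irf5 and Irf9), as had 1000 of all 16309 genes. On the recovered reads, edgeR and DESeq2 also called 0. The background of calls by limma was 0.251% of all genes, 0.215% higher and 0.0368% lower. The same 4 were lower without overlap, which held for 17.8% of all genes. The log2 difference of Irf1 was -0.77 (95% confidence interval -1.32 to -0.22, adjusted p = 0.470, limma). It was -0.56 for Irf9 (-1.0 to -0.11, adjusted p = 0.594) and -0.50 for Irf5 (-0.99 to -0.0017, adjusted p = 0.810), each with Eff samples below the lowest Ctrl sample. Irf2 (-0.01, -0.48 to 0.46), Irf3 (-0.09, -0.56 to 0.38), Irf7 (0.08, -1.04 to 1.2) and Irf8 (-0.12, -0.81 to 0.58) overlapped between the groups, the sign of Irf2 turning positive (0.0019 and 0.015) with equal totals or quantile normalization.

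Under LPS/IFNγ, 7 of the 8 means were lower in LPSEff than in LPS, and again 0 were called by limma, edgeR or DESeq2. None of the 8 had an unadjusted p under 0.05 in limma, beside 1679 of all 16309 genes. The background of calls by limma was 0.773% of all genes, 0.730% higher and 0.0429% lower. Irf2, Irf4 and Irf9 were lower without overlap (17.0% of all genes). For Irf2 the log2 difference was -0.34 (-0.81 to 0.13), and for Irf9 it was -0.16 (-0.60 to 0.29). The other intervals reached from -0.80 to 0.30 for Irf1, -0.49 to 0.45 for Irf3, -0.79 to 0.20 for Irf5, -0.81 to 1.43 for Irf7 and -1.11 to 0.28 for Irf8. Differences of up to these sizes are not excluded by 2 samples per group.

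**Figure D3:**
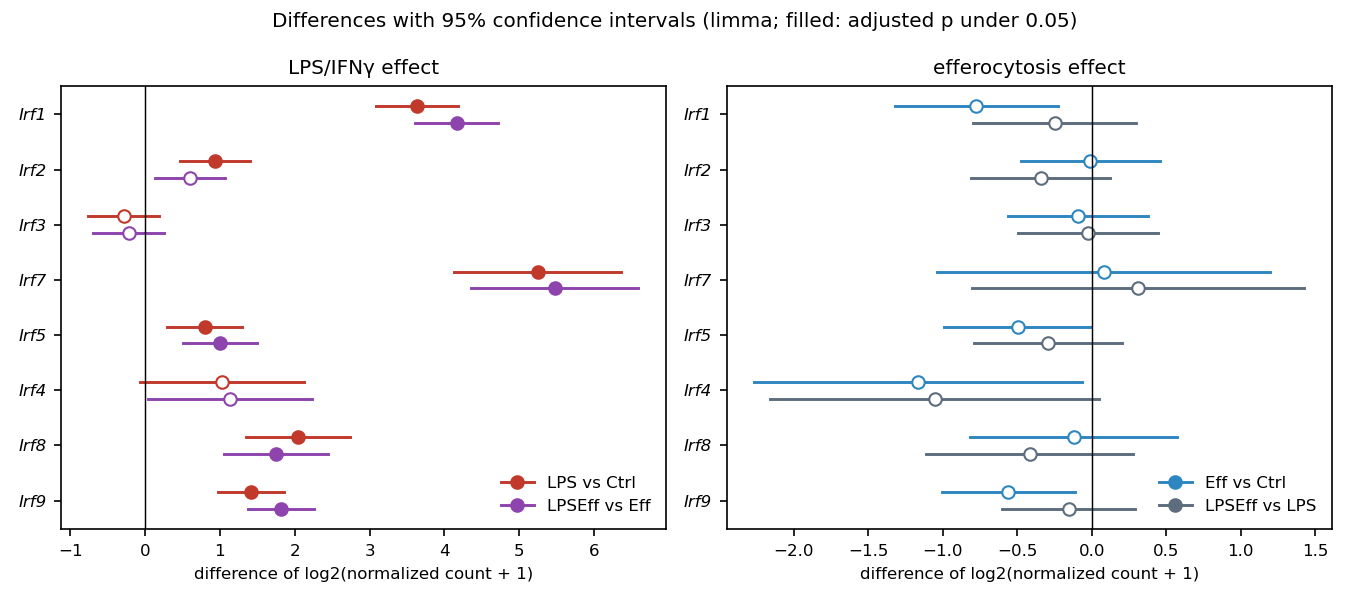
Differences of log2(normalized count + 1) for the 8 IRF transcripts with their 95% confidence intervals from limma (n = 2 per group), the LPS/IFNγ comparisons on the left and the efferocytosis comparisons on the right. Filled points had an adjusted p under 0.05, which 6 transcripts reached in LPS vs Ctrl, 5 in LPSEff vs Eff and 0 in both efferocytosis comparisons. With equal totals, Irf5 in LPS vs Ctrl was no longer called and Irf3 was called lower in both LPS/IFNγ comparisons.

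The LPS/IFNγ effect itself did not differ detectably between efferocytic and naïve Mϕ for any of the 8 transcripts. Of the interaction tests, limma, edgeR and DESeq2 called 0, and none of the 8 had an unadjusted p under 0.05 in limma. The background was 0% of all genes called and 311 of all 16309 genes at an unadjusted p under 0.05. The effect was higher in efferocytic Mϕ by 0.52 for Irf1 (95% confidence interval -0.25 to 1.30) and by 0.40 for Irf9 (-0.22 to 1.03). The intervals of the other 6 also included 0, the widest being that of Irf7 (-1.35 to 1.81).

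Most fibroblast transcripts examined were more abundant in the co-cultured samples. The summed normalized counts of 15 fibroblast markers were 175 to 405 in Ctrl, 811 to 900 in LPS, 2282 to 4624 in Eff and 6030 to 6879 in LPSEff. In both samples, 6 of the 15 were above the floor in Ctrl, 11 in LPS and 14 in each of Eff and LPSEff. Pdgfrb was highest in LPS (246 and 245, against 82.3 and 157 in LPSEff), and Thy1, Postn, Lum and Col5a1 overlapped between co-cultured and other samples. Pdgfrb and Col5a1 (410 and 305) made up most of the sum in LPS. RNA of the NIH-3T3 CA cells is mouse RNA and would be counted on the same IRF genes, and its part in the values of Eff and LPSEff was not tested. Summed markers of B and T cells were low, at 6.94 to 29.7 for 5 B cell and 9.52 to 56.9 for 5 T cell markers. The T cell sum was 9.52 to 13.9 in Ctrl, 38.8 to 56.9 in LPS, 11.4 to 13.4 in Eff and 31.7 to 36.4 in LPSEff. Lck made up most of it in LPS (29.7 and 49.8) and LPSEff (28.5 and 25.4). The sum of 7 neutrophil markers was 643 to 973 in Ctrl, 1534 to 1745 in LPS, 1058 to 1399 in Eff and 1612 to 2176 in LPSEff. S100a8 and S100a9 made up most of it in every sample, while Ly6g stood at 1.90 to 19.4 and Elane at 0.578 to 10.3.

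The makeup of the IRF transcript pool differed between stimulated and unstimulated Mϕ. Summed over the 8 transcripts, normalized counts per kb of merged exons were 679 ± 35.8 in Ctrl, 3239 ± 472 in LPS, 508 ± 6.56 in Eff and 2990 ± 499 in LPSEff (SD, n = 2). Irf5 had the highest level per kb in Ctrl (210 ± 6.08) and Eff (149 ± 15.3), followed by Irf8 (123 ± 4.94 and 114 ± 19.8), and Irf7 the lowest (25.4 ± 2.58 and 30.1 ± 19.7). Between them in Ctrl came Irf4 (107 ± 42.0), which overlapped with Irf8, then Irf1 (66.2 ± 2.14), Irf3 (57.2 ± 4.13) and Irf9 (57.0 ± 1.98), which overlapped, and Irf2 (34.2 ± 0.794). In Eff the levels of Irf3 (53.8 ± 6.14), Irf4 (49.4 ± 26.9), Irf9 (39.0 ± 7.28) and Irf1 (38.6 ± 0.608) each overlapped with the next. In Eff, Irf7 was lowest by its mean only, since its span (16.2 to 44.0) reached past those of Irf2 (34.0 ± 3.56) and Irf1 and overlapped with those of Irf4 and Irf9. In LPS, Irf7 (994 ± 294) and Irf1 (851 ± 284) were highest and overlapped each other and, for Irf1, also Irf8 (534 ± 247). In LPSEff, Irf7 (1280 ± 608) stood above Irf1 (698 ± 80.5) in both samples. Irf3 was lowest in both stimulated groups (46.8 ± 2.65 and 46.1 ± 4.32), overlapping with Irf2 in LPSEff only. With the length of the canonical transcript instead, the order of the highest pair turned in LPS (Irf1 1865 ± 622, Irf7 1567 ± 464) and both overlapped in LPSEff, Irf2 moved up to the third place in Ctrl and Eff, and Irf5 and Irf8 changed places in LPS and LPSEff. By their means, Irf5 as the highest and Irf7 as the lowest in Ctrl and Eff, and Irf3 as the lowest in LPS and LPSEff, held with both lengths.

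Irf5 thus made up 30.4% to 31.4% of the summed level in the Ctrl samples and 27.0% to 31.8% in Eff, but 10.3% to 12.4% in LPS and 9.03% to 11.1% in LPSEff. The share of Irf7 was 3.34% to 4.16% in Ctrl and 3.23% to 8.60% in Eff, against 22.0% to 41.4% in LPS and 32.2% to 51.2% in LPSEff. Irf1 held 9.61% to 9.90% in Ctrl and 22.4% to 29.5% in LPS, beside 7.46% to 7.77% in Eff and 19.2% to 28.6% in LPSEff. The shares of Irf8 overlapped between Ctrl (16.9% to 19.3%) and LPS (12.4% to 19.8%) but not between Eff (19.8% to 24.9%) and LPSEff (11.1% to 14.6%).

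**Figure D4:**
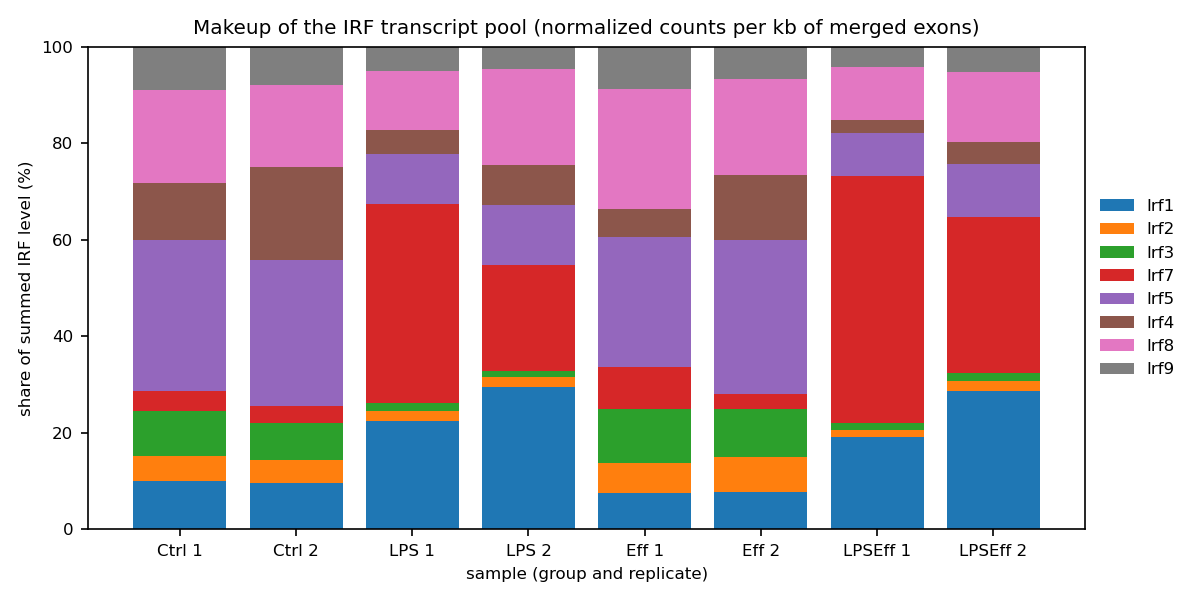
Share (%) of each IRF transcript in the summed level of the 8 transcripts in each sample, from normalized counts per kb of merged exons. Irf5 was the largest share in the Ctrl and Eff samples (27.0% to 31.8%), and Irf1 and Irf7 together with Irf8 took most of the pool in the LPS and LPSEff samples.

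Several IRF loci share sequence with other annotated genes. Gm17334, an unverified transcript model on the opposite strand within Irf1, shares 1467 exonic bases with it. Its normalized counts were 80.0 and 70.6 in Ctrl and 727 and 1111 in LPS, against 42.9 and 36.7 in Eff and 753 and 792 in LPSEff. They followed Irf1 in every sample, at 20.1% to 26.4% of its value. The log2 difference of Gm17334 was 3.56 in LPS vs Ctrl and 4.25 in LPSEff vs Eff (adjusted p = 7.23e-05 and 2.99e-05, limma). The default mode of htseq-count reads strand, but whether this matched the library kit is not given in the sources used here, so that the value of Gm17334 may hold reads of Irf1 or the reverse. Rnf31, a subunit of the linear ubiquitin ligase, lies before Irf9 on the same strand and shares 282 exonic bases with it, and reads there are uncertain for both genes. Rnf31 rose as well, by 2.21 and 1.97 on the log2 scale (adjusted p = 0.00156 and 0.00311, limma). On the opposite strand of Irf2, the long noncoding RNA Gm16675 had 7.89 to 13.3 normalized counts without and 27.7 to 41.4 with LPS/IFNγ (1.58 and 1.77, adjusted p = 0.0245 and 0.0178), and it shares 112 exonic bases with Irf2. Gm12216, a long noncoding RNA that spans Irf1 on the other strand, was called as well (2.45 and 2.29), from only 2 to 23 reads. The neighbours of the other loci did not pass in either LPS/IFNγ comparison, namely Bcl2l12, Scaf1 and Gm15545 at Irf3, Tnpo3 at Irf5 and Phrf1 at Irf7, with log2 differences of Scaf1 (0.12 and 0.18), Tnpo3 (-0.21 and -0.28) and Phrf1 (0.15 and 0.08) near 0. The remaining annotated genes within 5 kb, at Irf2, Irf5 and Irf7, were under the filter, and Irf4 and Irf8 had none in the file.

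The genes around the IRFs were read from lists of the pathway, whose counts stand against 12.4% of all genes called higher and 11.6% lower in LPS vs Ctrl, and 10.7% and 8.95% in LPSEff vs Eff. Of 26 sensors and signalling genes upstream of IRF3, IRF5 and IRF7, 13 rose and 3 fell in LPS vs Ctrl and 15 rose and 1 fell in LPSEff vs Eff, with a median log2 difference of 0.81 and 1.09. The cytosolic RNA sensors led this group. Ifih1, which encodes MDA5, had 248 and 256 normalized counts in Ctrl and 3377 and 4802 in LPS, compared with 144 and 177 in Eff and 3448 and 4004 in LPSEff. Its log2 difference was 4.0 and 4.53 (adjusted p = 3.19e-05 and 1.54e-05, limma), and those of Dhx58, which encodes LGP2 (4.04 and 4.14), and Rigi (3.43 and 3.64) were similar.

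Of 11 interferon and interferon receptor signalling genes, 9 were tested, of which 6 rose in naïve and 7 in efferocytic Mϕ. Ifnb1 and Ifng were under the filter on low values. Ifnb1, the target of IRF3 and IRF7 that encodes IFNβ, had means of 1.24 ± 0.938 in Ctrl, 25.3 ± 10.2 in LPS and 11.6 ± 5.17 in LPSEff (SD, n = 2), and it was at 0 in both Eff samples. Ifng, which encodes the added cytokine, was at or below 1.66 in each group mean. Stat2, a partner of IRF9 in ISGF3, had 748 and 678 in Ctrl and 4207 and 4631 in LPS, against 401 and 414 in Eff and 3953 and 3647 in LPSEff. No stimulated sample overlapped the unstimulated samples. The log2 differences were 2.63 and 3.22 for Stat2, and 2.45 and 2.75 for Jak2, a kinase of the IFNγ receptor. These 4 values had adjusted p-values between 1.87e-05 and 0.00132 (limma).

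Among 14 DNA-binding partners of IRF4 and IRF8, 4 rose and 1 fell in LPS vs Ctrl (12.4% and 11.6% of all genes). In LPSEff vs Eff, 3 rose and 1 fell (10.7% and 8.95% of all genes). Batf2, an AP-1 type partner, had 20.9 and 21.4 in Ctrl and 309 and 541 in LPS, compared with 15.8 and 18.3 in Eff and 396 and 378 in LPSEff (4.21 and 4.43, adjusted p = 8.29e-05 and 5.58e-05, limma). Junb rose by 1.92 and 1.70 on the log2 scale, and Fos fell by 1.39 and 2.14. Of 13 inhibitors and cofactors, 5 rose in each comparison. These included the interferon receptor inhibitor Usp18 (4.19 and 4.69), the JAK inhibitor Socs1 (2.93 and 2.54) and Trim21 (2.84 and 3.0), a ubiquitin ligase that acts on several IRF proteins.

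All 15 genes of a list bound by ISGF3 rose in both LPS/IFNγ comparisons, with median log2 differences of 5.15 and 5.64. Rsad2, an antiviral enzyme, had 179 and 116 in Ctrl and 42308 and 28716 in LPS, against 114 and 69.2 in Eff and 47731 and 37825 in LPSEff (7.91 and 8.89, adjusted p = 9.5e-06 and 4.29e-06, limma). Oasl1 (7.26 and 7.79), a translational inhibitor of Irf7, and Cmpk2 (7.22 and 8.04), a nucleotide kinase, were next in naïve Mϕ. Of 16 genes known to need IRF1 or IRF8 with IFNγ, 15 rose in both comparisons, with medians of 3.10 and 3.68. The gene not called was Ciita, the coactivator of MHC class II (0.63 and 0.89, adjusted p = 0.596 and 0.459, limma), whose replicates differed widely. Its means were 1561 ± 953 in Ctrl, 2668 ± 2182 in LPS, 978 ± 663 in Eff and 1658 ± 672 in LPSEff (SD, n = 2). Nos2, the inducible nitric oxide synthase, had 45.7 and 31.8 in Ctrl and 37734 and 24545 in LPS, compared with 23.7 and 26.8 in Eff and 50429 and 39259 in LPSEff (9.60 and 10.73, adjusted p = 1.55e-06 and 9.37e-07). Cxcl10 (8.36 and 9.07) and Il12b (7.41 and 7.62) followed.

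All 6 genes of the IRF5 list rose in both comparisons, with medians of 7.52 and 6.39, among them Il6 (9.33 and 8.21) and Il1b (8.73 and 8.26). Il12a, which encodes the second chain of IL-12, was at 0 in both Ctrl samples and at 138 and 278 normalized counts in LPS, against 3.51 and 0.706 in Eff and 53.8 and 83.8 in LPSEff. Of 6 genes of the IRF4 list, Retnla was at 0 in all groups and 1 of the other 5 rose in each comparison. This was Ccl17, a chemokine, with 861 and 1154 in Ctrl and 4946 and 14468 in LPS, against 362 and 692 in Eff and 3189 and 4920 in LPSEff (3.08 and 2.98, adjusted p = 0.00379 and 0.00516). Ccl17 was lower without overlap in both efferocytosis comparisons (-0.99 and -1.09, adjusted p = 0.931 and 0.528), as was Irf4.

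With equal totals or quantile normalization, all genes of the ISGF3 and IRF5 lists and 15 and 14 of the 16 genes of the IRF1 or IRF8 list were still called higher in both LPS/IFNγ comparisons. Equal totals moved the median of all genes to -0.40 and -0.44. With this scaling, 11 upstream genes were called higher and 5 lower in LPS vs Ctrl, and 12 and 6 in LPSEff vs Eff. Of all 16309 genes, 1420 were then called higher and 4315 lower in LPS vs Ctrl, and 1216 and 4362 in LPSEff vs Eff. Of the receptor signalling genes, 4 were then higher and 1 lower in each comparison. The DNA-binding partners had 4 higher and 3 lower in naïve and 1 higher and 4 lower in efferocytic Mϕ, and the inhibitors had 5 higher in each and 1 and 2 lower. The medians of the partners (0.11 and -0.017) and of the inhibitors (-0.016 and -0.11) remained above that of all genes under this scaling.

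With efferocytosis, 0 of the 101 list genes tested were called by limma or edgeR. In limma, Mx1 of the ISGF3 list was called lower in Eff vs Ctrl with equal totals or quantile normalization, and the partner Batf3 was called lower in LPSEff vs LPS with quantile normalization, both named after their values were seen. At an unadjusted p under 0.05 in limma there were 23 in the Eff vs Ctrl comparison and 14 in LPSEff vs LPS. Over all 16309 genes tested these counts were 1000 and 1679. DESeq2 called 6 and 5 of the list genes, beside 207 and 368 of all genes. In Eff vs Ctrl, the medians of the ISGF3 list (-0.64) and of the IRF1 or IRF8 list (-0.68) were below that of all genes (-0.01), and 6 of 15 and 11 of 16 genes were lower without overlap, with 0 higher (17.8% and 16.3% of all genes). In LPSEff vs LPS, the corresponding medians were 0.09 and -0.13, with 2 of 15 and 4 of 16 lower and 1 of each higher without overlap, where 17.0% of all genes were lower and 19.3% higher without overlap. Of the 26 upstream genes, 11 were lower and 2 higher without overlap in Eff vs Ctrl (median -0.22), and 5 and 3 in LPSEff vs LPS (median -0.02). Of the 6 genes of the IRF5 list, 1 was lower and 2 higher in Eff vs Ctrl (median 0.15), and 4 and 0 in LPSEff vs LPS (median -0.74). Among the lower genes was Il12b, the p40 chain of IL-12, which had 110 and 180 in Ctrl and 33.3 and 69.2 in Eff, and 19966 and 29324 in LPS and 7089 and 13201 in LPSEff. Its log2 differences of -1.53 and -1.32 were not called by limma (adjusted p = 0.390 and 0.307), but DESeq2 called both (adjusted p = 0.0141 and 0.0210).

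**Figure D5:**
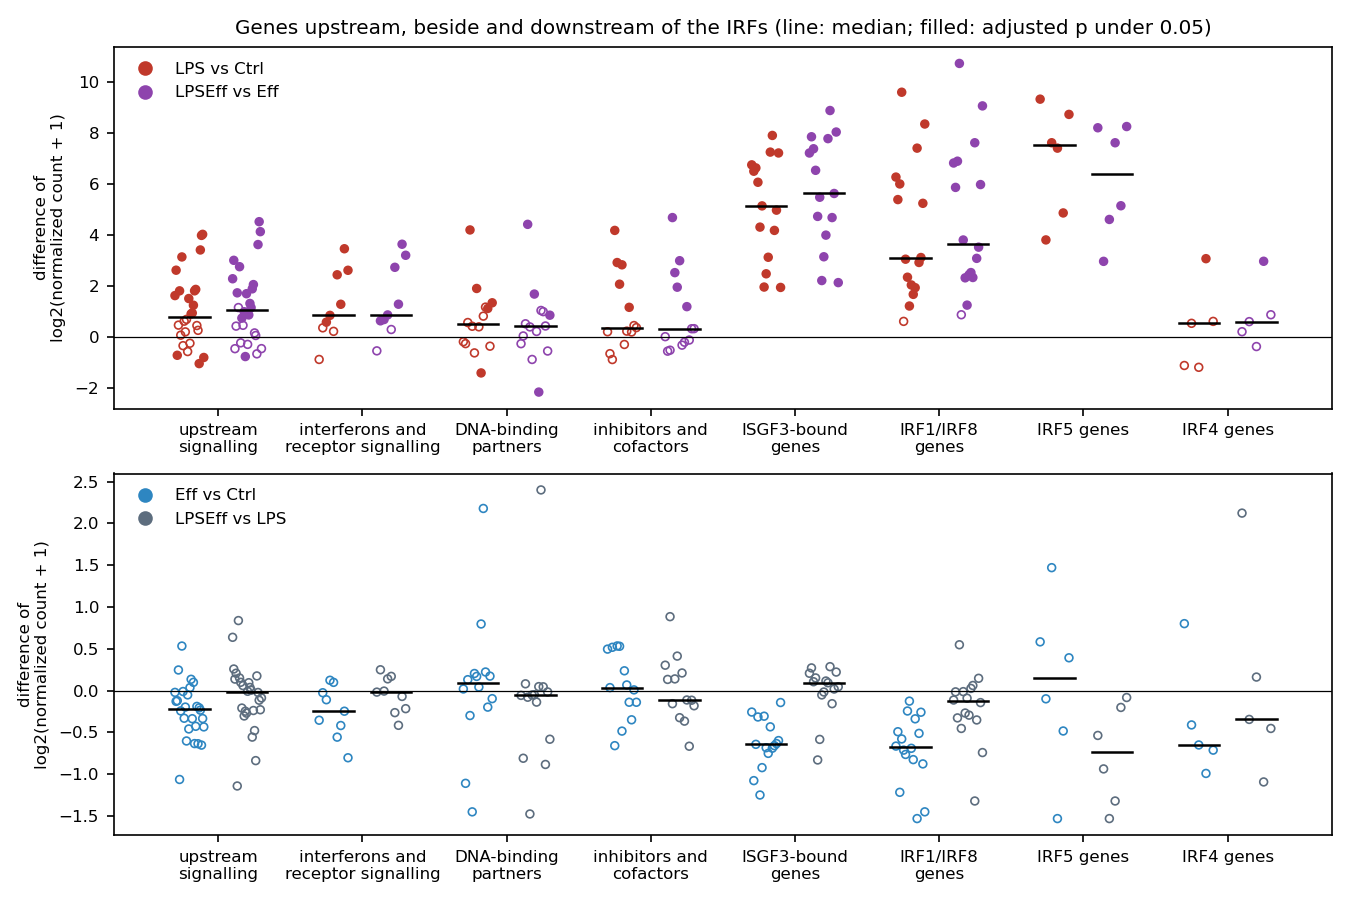
Differences of log2(normalized count + 1) for the tested genes of 8 lists around the IRFs, with LPS/IFNγ in the upper and efferocytosis in the lower panel, a line at each list's median and filled points for an adjusted p under 0.05 (limma). All 15 ISGF3-bound genes were higher with LPS/IFNγ in both comparisons, and 0 genes were called in Eff vs Ctrl or LPSEff vs LPS, where Mx1 and Batf3 were called with other scalings.

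Finally, each IRF transcript was set beside the 2 protein-coding genes whose profile over the 8 samples was nearest, by the Euclidean distance of centred log2 values. As a description over 8 samples from 4 groups, with correlations that are fed by the LPS/IFNγ difference, Irf1 was nearest to Xaf1 (distance 0.410, r = 0.998) and Herc6 (0.474, r = 0.996), both interferon-stimulated genes. Irf7 was nearest to Oasl2 (1.01, r = 0.992) and Lcn2 (1.01, r = 0.991), and Irf9 to Rnf114 (0.429, r = 0.985) and Psd (0.450, r = 0.983). Irf8 was nearest to Clec2d (0.355, r = 0.994) and Tmem39a (0.438, r = 0.988). Irf2 was nearest to Rsbn1l (0.165, r = 0.991) and Bcl9l (0.223, r = 0.982), and Irf3 to Cic (0.106, r = 0.972) and Mapk8ip3 (0.125, r = 0.960). Irf5 was nearest to Dclre1c (0.301, r = 0.981) and Pdzk1ip1 (0.304, r = 0.982). Irf4 was nearest to Grk3 (0.548, r = 0.977) and Prrg4 (0.649, r = 0.967). A choice by nearness to Irf4 favours genes that share its lower values in efferocytic Mϕ. The log2 differences without and with LPS/IFNγ were -0.79 and -0.87 for Grk3 and -1.03 and -1.30 for Prrg4. Among the 8 transcripts themselves, Irf8 and Irf9 (0.850) and Irf2 and Irf5 (0.612) were the closest pairs, and Irf7 and Irf3 (8.03) the farthest apart.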

How the data were processed

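Total RNA was rRNA-depleted, and libraries were made with a TruSeq Ribo Profile kit. The authors trimmed adapters with cutadapt, filtered rRNA reads by Bowtie2, aligned the rest by STAR (mm39) and used htseq-count per gene; annotation release and tool versions are not given in the sources used here. The deposited signal per gene is a normalized count, which the authors made with DESeq2 by dividing reads through a size factor of each sample. All values (100%) were multiples, within 0.01, of 1 step per sample, which recovered the reads. The floor of 3 reads covers counting error only.

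Genes were matched to GENCODE annotation of GRCm39 (54749 of 55359). limma (3.58.1, R 4.3.3) with a trend was fitted to log2(normalized count + 1) of 16309 genes with a mean of at least 10, with 4 group means and 4 residual degrees of freedom. An exact permutation test of 2 against 2 samples cannot go below p = 0.333. edgeR 4.0.16 and DESeq2 1.42.0 on recovered reads, other pseudocounts, filters, scalings, a replicate block and leaving out each sample were alternatives. Fits were tested on simulated data. Lengths were merged exons, or the canonical transcript as an alternative. Members and lists were chosen with earlier results of these data known. Named genes were the 8 members, the 3 called list genes with the largest difference in LPS vs Ctrl, list genes called with efferocytosis, the 2 nearest profiles and neighbours within 5 kb (2 genes named by this rule are not reported here); Ciita, the markers named and list genes under the filter were added after their values were seen, as were canonical lengths and count tests with the block.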

Additional observations from a re-analysis of the deposited data

How the results depend on the processing

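Of 8 IRF transcripts, 4 to 7 were called in LPS vs Ctrl (6 as reported) and 4 to 7 in LPSEff vs Eff (5 as reported) over all alternatives, 4 to 6 and 4 to 5 when a sample was left out. For Irf5 in LPS vs Ctrl, the call was also lost with all genes of a mean above 0 (adjusted p = 0.0562) or with only the groups compared in the limma fit (0.0849). Same-numbered samples deviated together (r = 0.404 to 0.595 over genes for the 6 pairs of groups), but the labels do not say what a number shares. With the replicate number as a block, 2 transcripts were called in Eff vs Ctrl instead of 0, namely Irf1 (-0.77, adjusted p = 0.0405) and Irf4 (-1.16, adjusted p = 0.00752), and 1 in LPSEff vs LPS instead of 0, Irf4 (-1.05, adjusted p = 0.0073), in limma; edgeR and DESeq2 with the block also gave 2 and 1. Irf4 was then called in both LPS/IFNγ comparisons (adjusted p = 0.000967 and 0.000572) and Irf2 in LPSEff vs Eff (0.00865). Of all genes, the block called 436 instead of 41 in Eff vs Ctrl, 1137 instead of 126 in LPSEff vs LPS, 6717 instead of 3910 in LPS vs Ctrl and 6033 instead of 3213 in LPSEff vs Eff; with edgeR these were 429, 1233, 6663 and 6314, and with DESeq2 515, 1072 and, in LPSEff vs Eff, 5290, and 29 instead of 0 for the interaction. Other counts that moved by over 1.5 times were those of Eff vs Ctrl with genes of a mean above 0 (79) or of at least 50 (20), with only the groups compared (9), edgeR (14) and DESeq2 (207), of LPSEff vs LPS with only the groups compared (66) and DESeq2 (368), and of LPSEff vs Eff with equal totals (5578). Leaving out a sample gave 0 to 45, 0 to 84, 1567 to 3407 and, in LPS vs Ctrl, 2076 to 3562 called genes. The cause was not tested.

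Signs turned only for differences that were not called. Irf2 in Eff vs Ctrl became 0.0019 with equal totals and 0.015 with quantile normalization, and the interaction became -0.014 for Irf3 with quantile normalization and -0.021 for Irf4 with DESeq2. Leaving out a sample gave -0.12 to 0.10 for Irf2, -0.21 to 0.024 for Irf3, -0.63 to 0.79 for Irf7 and -0.30 to 0.059 for Irf8 in Eff vs Ctrl. In LPSEff vs LPS it gave -0.60 to 0.10 for Irf1, -0.12 to 0.071 for Irf3, -0.19 to 0.81 for Irf7 and -0.91 to 0.072 for Irf8. For the interaction it gave -0.049 to 0.18 for Irf3, -0.47 to 0.69 for Irf4, -0.079 to 0.49 for Irf5, -0.48 to 0.94 for Irf7 and -0.79 to 0.19 for Irf8. Where a sample was left out, the lone sample of its group was assumed to vary like the other groups. The IRF transcripts had 54 reads or more in every sample.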
